A study of Homo sapiens with 6 samples.

Results

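The 49 genes described here make up the machinery of mitosis and the spindle: the kinases and cyclins that drive entry into mitosis, the proteins of the kinetochore, the spindle checkpoint, the mitotic kinesins, the genes of chromosome separation and those of cytokinesis. They were taken from the deposited gene table by gene symbol, no symbol occurred more than once, and all 49 of the 49 symbols were found among the 33007 genes in the table, whose positions are in build GRCh38. The members were grouped into 10 roles. RNA-seq was performed to find genes whose expression changes with ZNF706 in LM3 cells, an established hepatocellular carcinoma (HCC) cell line. The vector control group had 3 samples and the group with stable ZNF706 knockdown had 3 samples, so that 6 samples entered every comparison. The knockdown cells carried a short hairpin RNA against ZNF706 in the lentiviral vector pLKO.1 and had been selected with puromycin. Which hairpin was used for the RNA-seq was not given in the sources used here, nor whether the samples of a group came from separate cultures, so the p-values measure only the spread between these samples, which may be technical. Control samples 1 to 3 held 62684076, 64713764 and 63054445 counts in all and knockdown samples 1 to 3 held 68548419, 65861994 and 69057423, and every knockdown sample was thus sequenced more deeply than every control sample.

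Mitosis separates the duplicated chromosomes into daughter cells. Cyclin B bound to the kinase CDK1 starts the process, spindle microtubules attach to the kinetochores on each centromere, and a checkpoint holds back the anaphase promoting complex until every chromosome is attached. The complex then marks securin and the mitotic cyclins for destruction, separase opens the cohesin rings, and the cell is cut by the contractile ring. Most of these genes are transcribed in a wave late in the cell cycle, when MYBL2 and FOXM1 bind with the MuvB complex at promoters that the DREAM complex keeps silent in resting cells. Their mRNAs are therefore used as a reading of how many cells in a culture are dividing, and they are abundant in fast-growing liver cancer cells.

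The targeted gene was examined first. ZNF706 had 3211, 3504 and 3357 counts in the controls and 2350, 2068 and 2298 with ZNF706 knocked down, so that each knockdown sample lay below each control sample. As CPM (the count scaled to a common library size with the TMM factors of edgeR), ZNF706 measured 53.9 ± 1.76 in the controls against 32.4 ± 1.39 after knockdown (SD, n = 3). The fold change on the log2 scale was -0.73 (standard error, SE, 0.05) with an adjusted p of 3.7e-05 by edgeR's quasi-likelihood test over 18390 genes. Markers of the labelled liver origin were uneven. The epithelial keratin KRT18 measured 270.6 FPKM (the authors' values, which also divide by the length of the gene) and KRT8 measured 193 FPKM in the control group, whereas ALB, which encodes the albumin made by hepatocytes, had no more than 3.57 FPKM in any sample. Without the keratins, the 10 other hepatocyte and HCC markers summed to 3.13, 7.67 and 9.03 FPKM in control cells and 4.07, 4.45 and 2.42 FPKM after knockdown, with ALB as the most abundant. Of these, APOB, an apolipoprotein, fell (log2 fold change -0.98, adjusted p 0.021 by edgeR). Control sample 1 and knockdown sample 3 were the low ones of their groups in this sum, with 189 and 138 ALB counts, but not for every marker. APOA1 was highest of its group in knockdown sample 3 (138 counts, against 0 and 4). HNF4A was highest of its group in control sample 1 (122 counts, against 30 and 64). Without this pair of samples, 23 of the 49 mitosis and spindle genes were called lower and 0 higher, against 8.75% and 6.38% of all genes tested in that fit. Among 6 fibroblast and stellate cell markers, summing to 9.41, 7.9 and 8.33 FPKM in the control and 9.85, 10.05 and 9.61 FPKM in the knockdown samples, COL1A1 was the most abundant and rose (log2 fold change 0.20, adjusted p 0.0023 by edgeR), and PDGFRB also rose (log2 fold change 0.68, adjusted p 0.0030 by edgeR), while COL1A2 was listed at 0 in 3 samples. The log2 fold changes of the other markers of this list were below 0, at -2.04 for COL3A1, -1.26 for LUM and -0.039 for DCN, with groups that overlapped, and none of them was called (adjusted p 0.34, 0.12 and 0.97 by edgeR). Of the endothelial markers, CDH5 fell (log2 fold change -0.70, adjusted p 0.0014 by edgeR), PECAM1 was at 0.15 on the log2 scale and not called (adjusted p 0.54 by edgeR, 6.06 CPM in the control and 6.73 CPM in the knockdown group), and VWF was at or near 0. The sum of the endothelial markers was 1.79, 1.91 and 2.06 FPKM in the control and 1.43, 1.61 and 1.69 FPKM in the knockdown samples. The blood and immune markers PTPRC and HBB were at or near 0 in every sample. The part of these markers in the results on mitotic genes was not tested.

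In the knockdown group 24 of the 49 mitosis and spindle genes fell and 0 rose at an adjusted p below 0.05, against 12.4% of all genes tested called lower and 10.4% called higher. Since the members are strongly expressed, with 1898 to 66266 counts in a sample, they are also set beside the 8512 genes that average 1000 counts or more, a limit chosen after seeing the data, of which 24.3% were called lower and 13.2% higher. The median log2 fold change was -0.16 over the members, 0.0095 over all genes tested and -0.04 over the genes averaging 1000 counts or more. The members ranged from -0.64 for CENPE to 0.09 for HMMR. A log2 fold change below 0 was found for 46 members, compared with 48.7% of all genes tested and 58.8% of those averaging 1000 counts or more, and the 3 others were HMMR, KIF20A and BUB1. The number below 0 was 42 under library size alone (40.5% of all genes tested), with limma-trend on FPKM (44.4%) and after removal of the GC trend, that is, the trend of the counts with the GC content of the genes (47.5%). The sign turned in at least 1 of 17 other fits for 8 members, FOXM1, BUB1, NDC80, NUF2, KIF11, KIF20A, DLGAP5 and CDC20, none of which was called. Every knockdown sample lay below every control sample in CPM for 33 members (67.3%), against 19.7% of all genes tested and 33.8% of those averaging 1000 counts or more. Every knockdown sample lay above every control sample for 1 member, HMMR, against 19.7% of all genes tested and 20.6% of the well counted ones. With the criteria of the study, read as an unadjusted p below 0.05 and a log2 fold change of at least 0.3 in size, 11 members fell and 0 rose, beside 5.88% of all genes lower and 9.61% higher. The 11 became 7 without control sample 3 (5.43% of all genes tested lower) and after removal of the GC trend (5.46%), and 5 under library size alone (3.84%) and with limma-trend on FPKM (4.63%). In bulk RNA from a culture, fewer cells in mitosis and less of these mRNAs per cell cannot be told apart. For 1 gene on its own, the smallest two-sided p that exact permutation of 3 and 3 samples allows is 0.1, so the calls rest on the fit across all genes.

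**Figure D1:**
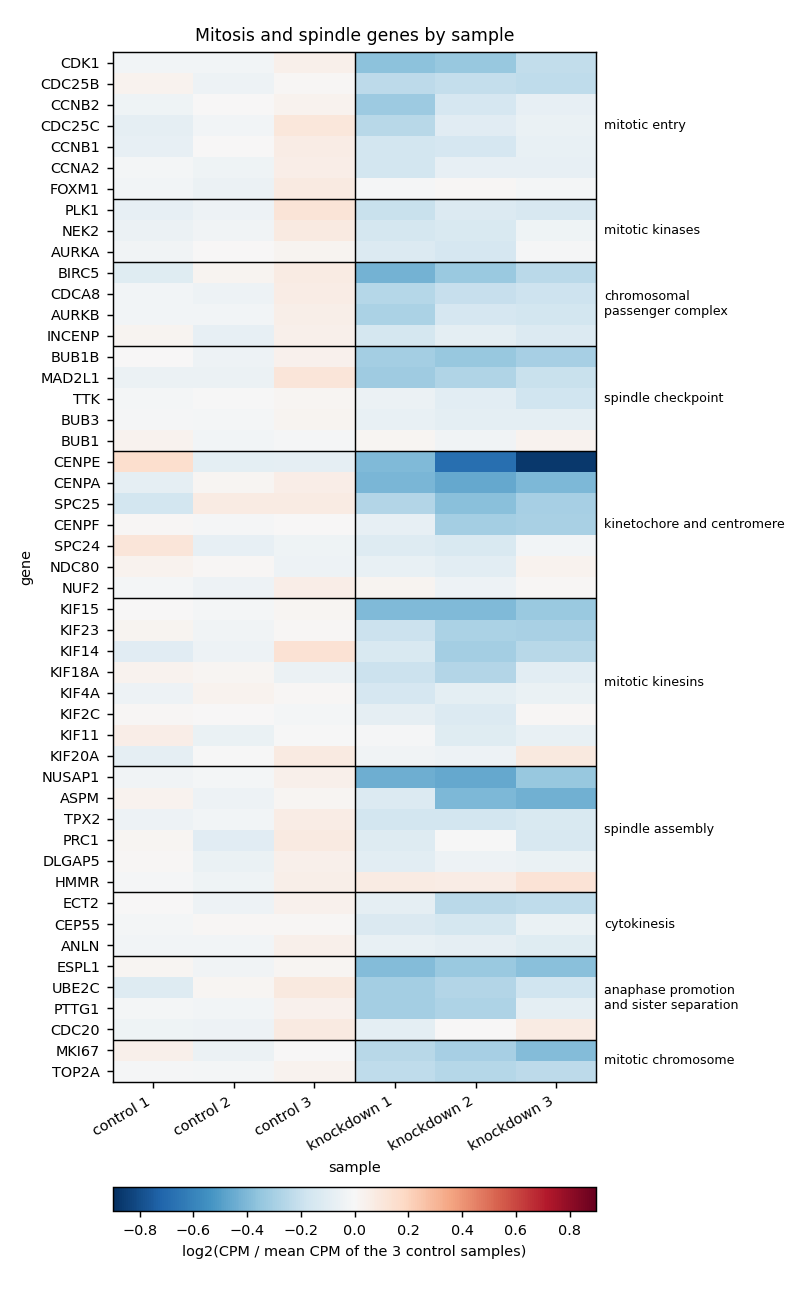
Each row is 1 of the 49 mitosis and spindle genes, ordered by role, and each column is 1 sample. Colour gives the log2 ratio of the gene's CPM to the mean CPM of the 3 control samples. Most rows are blue in all 3 knockdown samples, with CENPE the darkest, while HMMR is red there and FOXM1, NUF2, BUB1, CDC20 and KIF20A stay near white.

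The fall showed in each knockdown sample rather than in one. Summed over the 49 members, the CPM was 11040, 10930 and 11460 in control cells and 9906, 9760 and 9910 after knockdown. The sums of the groups did not overlap, and the mean of the knockdown group was 11.5% below that of the control group (11140 ± 279.7 against 9859 ± 85.5, SD, n = 3). The members held 1.09%, 1.07% and 1.12% of all counts in control cells and 1.01%, 0.994% and 1.00% after knockdown. Against the mean of the control samples, the median member lay at -0.02, -0.03 and 0.04 on the log2 scale in control cells and at -0.16, -0.15 and -0.13 after knockdown. Of the 49 members, 46, 46 and 42 lay below the control mean in the knockdown samples.

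**Figure D2:**
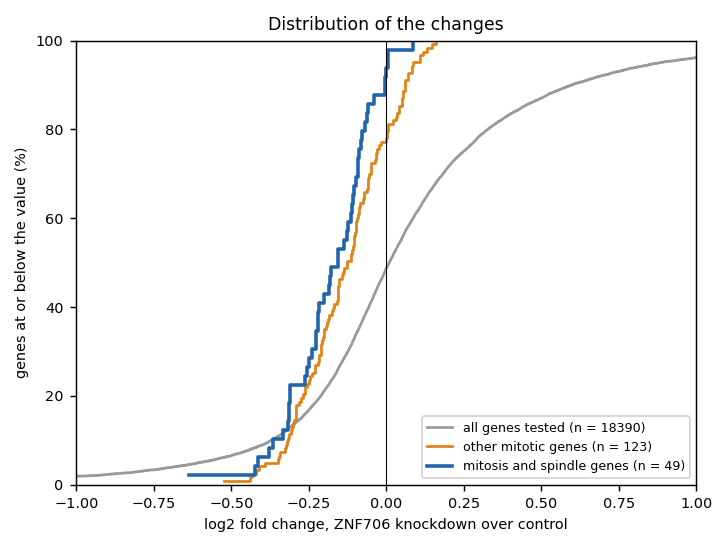
The cumulative share of genes (vertical axis, %) is plotted against the log2 fold change of knockdown over control (horizontal axis, drawn from -1 to 1) for the 49 mitosis and spindle genes, 123 other mitotic genes and all 18390 genes tested. The curve of the 49 genes reaches nearly its full height left of 0 and lies between -0.64 and 0.09, whereas the curve of all genes crosses 0 at 48.7% and has longer tails on both sides.

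The promoters of these genes share sequence features that were not used to choose them. RefSeq promoter windows from 250 bases before to 50 bases after the start (build GRCh38.p14) were matched for 42 of the 49 members, with 52 windows, and those of FOXM1, AURKA, BIRC5, BUB3, TTK, TPX2 and UBE2C were not analysed here. The cell cycle genes homology region (CHR), the element through which the MuvB complex is known to bind, was searched as TTTGAA or TTCGAA on both strands, and the CCAAT box, the site of the factor NF-Y, as CCAAT on both strands. The CHR letters were found in 33 of the 42 members (78.6%), compared with 19.5% of the 27305 genes with a promoter window and 15.6% of the 11360 of these that were tested. Within 50 bases of the start they occurred in 69.0%, compared with 6.24% of all and 4.87% of tested genes. The members whose windows hold no CHR letters were AURKB, CCNA2, CCNB1, CENPE, KIF20A, KIF2C, NEK2, PTTG1 and SPC24. The CCAAT letters occurred in 83.3% of members, 39.7% of all genes and 42.9% of tested genes, and both elements together in 66.7%, 7.85% and 6.64%. The E2F letters TTTCCCGC or TTTGGCGC, also read on both strands, occurred in 3 members (7.14%, against 2.75% of all and 4.39% of tested genes), which were CENPA, KIF15 and NUSAP1, and the E-box CACGTG in 5 members (11.9%, against 8.77% of all and 12.4% of tested genes). Among the members with a window, the CHR letters were present in 18 of 21 that fell (85.7%) and in 15 of 21 that were not called (71.4%), so they occurred on both sides of the threshold. The 140 bases before the start are shown for 4 members that fell and then for 4 that were not called, chosen after their values were seen so that each set has a member with no CHR letters, in lower case with the CHR and CCAAT letters in capitals, 5′ to 3′ along the gene's strand.
ESPL1: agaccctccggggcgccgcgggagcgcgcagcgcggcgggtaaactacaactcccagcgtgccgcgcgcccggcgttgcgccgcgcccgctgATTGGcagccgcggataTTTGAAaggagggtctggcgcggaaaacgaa
MKI67: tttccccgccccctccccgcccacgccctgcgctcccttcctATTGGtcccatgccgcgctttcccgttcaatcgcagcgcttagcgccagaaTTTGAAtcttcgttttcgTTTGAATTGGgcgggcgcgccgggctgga
KIF18A: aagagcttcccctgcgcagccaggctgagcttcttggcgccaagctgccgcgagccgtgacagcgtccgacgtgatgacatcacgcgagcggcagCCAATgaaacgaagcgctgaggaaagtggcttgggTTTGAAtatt
PTTG1: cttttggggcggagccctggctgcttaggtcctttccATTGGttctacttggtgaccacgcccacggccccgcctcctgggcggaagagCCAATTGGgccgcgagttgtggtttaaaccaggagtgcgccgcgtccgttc
CDC20: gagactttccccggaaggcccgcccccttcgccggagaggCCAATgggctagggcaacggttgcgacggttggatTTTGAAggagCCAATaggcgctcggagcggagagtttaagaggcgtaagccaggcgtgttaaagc
CEP55: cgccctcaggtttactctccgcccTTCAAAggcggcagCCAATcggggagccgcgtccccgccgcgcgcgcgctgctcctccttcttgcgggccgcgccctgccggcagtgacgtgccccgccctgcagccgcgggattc
DLGAP5: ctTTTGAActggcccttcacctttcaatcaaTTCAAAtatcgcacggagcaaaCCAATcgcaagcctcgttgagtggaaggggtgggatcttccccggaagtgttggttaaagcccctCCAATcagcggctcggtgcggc
CCNA2: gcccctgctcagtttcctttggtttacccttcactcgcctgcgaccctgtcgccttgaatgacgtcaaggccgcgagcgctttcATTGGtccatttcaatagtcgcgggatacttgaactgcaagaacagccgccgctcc
These stretches lie at chr12:53268159-53268298 (plus strand) for ESPL1, chr10:128126424-128126563 (minus strand) for MKI67, chr11:28108157-28108296 (minus strand) for KIF18A and chr5:160421715-160421854 (plus strand) for PTTG1, which fell. For the members that were not called they lie at chr1:43358841-43358980 (plus strand) for CDC20, chr10:93496472-93496611 (plus strand) for CEP55, chr14:55191586-55191725 (minus strand) for DLGAP5 and chr4:121823884-121824023 (minus strand) for CCNA2. In MKI67 a CHR runs into a CCAAT box read on the other strand, and the elements share letters there. In CEP55 a second CHR begins 3 bases before the start and runs past the printed stretch, so its letters there are in lower case. CDC20, whose groups differed by less than the spread between replicates, holds the same pair of elements as ESPL1, which fell. A match of letters is a description of the window and does not show that a factor binds there. Nor does a lack of these exact letters, as in CCNA2, show that the element is absent, since variant forms were not searched.

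The roles hold 2 to 8 genes each, and their counts stand beside 12.4% of all genes tested called lower and 19.7% with every knockdown sample below every control sample, or 24.3% and 33.8% of the genes averaging 1000 counts or more. The drivers of mitotic entry split into those that fell and those that did not pass the test. Of 7 members, CDK1 and CDC25B fell, and 5 were not called. CDK1 (ENSG00000170312, chromosome 10, 60778331 to 60794852, plus strand), the kinase that starts mitosis, had 14286, 14661 and 14901 counts with the vector alone and 12713, 12427 and 14085 with the hairpin. All 3 knockdown samples lay below the control samples, at 189 ± 10.6 against 235 ± 6.94 CPM (SD, n = 3), and the log2 fold change was -0.31 (SE 0.045, edgeR adjusted p 0.0011). CDC25B, a phosphatase that activates CDK1, fell from 136 ± 3.83 to 116 ± 0.947 CPM (SD, n = 3) with a log2 fold change of -0.23. CCNB1 (ENSG00000134057, chromosome 5, 69167135 to 69178245, plus strand), the cyclin partner of CDK1, had the highest level of all members per length, at 171.5 FPKM in the control group. Its counts were 28408, 30884 and 31111 in control cells and 30188, 29302 and 32313 after knockdown, and the CPM values of the groups overlapped, since knockdown sample 3 lay just above control sample 1. CCNB1 measured 484 ± 24.0 against 443 ± 16.6 CPM (SD, n = 3), a log2 fold change of -0.13 that narrowly missed the threshold (adjusted p 0.059 by edgeR) and passed it in 7 of 17 other fits. The other cyclins, CCNB2 (-0.18 on the log2 scale, adjusted p 0.052 by edgeR) and CCNA2 (-0.10, adjusted p 0.091), had groups that did not overlap and were not called. CCNB2 passed in 7 and CCNA2 in 2 of 17 other fits, and the log2 fold change of CCNB2 was -0.11 (adjusted p 0.11 by edgeR) without knockdown sample 1. The phosphatase gene CDC25C was at -0.14 and not called either, and leaving out control sample 3 or knockdown sample 1 gave -0.087 and -0.081 (adjusted p 0.49 and 0.52 by edgeR). FOXM1 (ENSG00000111206, chromosome 12, 2857680 to 2877174, minus strand), a transcription factor for late cell cycle genes, had 29885, 30116 and 31948 counts in control cells and 34285, 33286 and 34057 after knockdown. Its CPM was 492 ± 24.8 and 491 ± 4.99 (SD, n = 3), the knockdown samples lay inside the range of the control samples, and the log2 fold change of -0.0052 (standard error 0.038) had an adjusted p of 0.95 by edgeR, with a sign that turned under 4 of 17 other fits. In all, 12 members overlap a gene on the opposite strand. Reads of FOXM1 and of RHNO1, which overlaps it on the opposite strand with 5186, 5399 and 4766 counts in control cells and 6809, 6040 and 6623 after knockdown, cannot be told apart if strand was not used in counting.

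**Figure D3:**
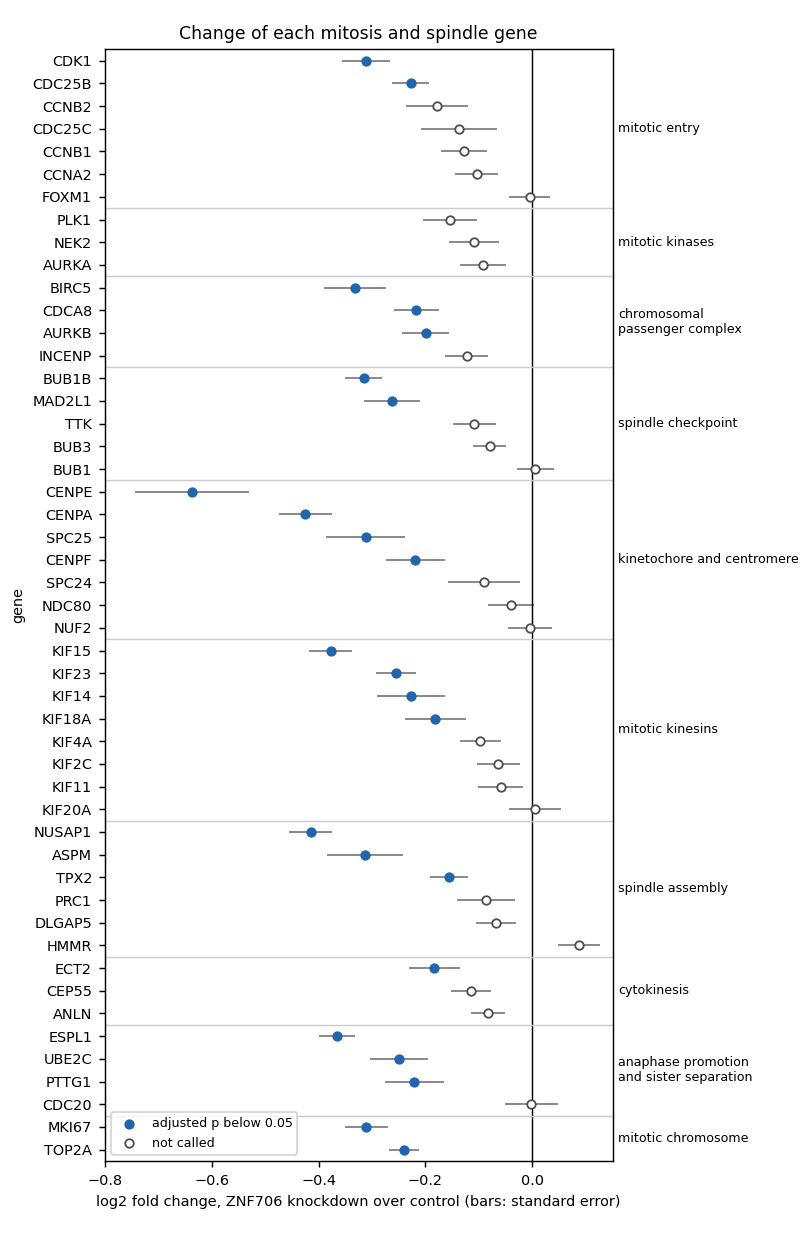
The log2 fold change of ZNF706 knockdown over control (horizontal axis) is plotted for each of the 49 genes with a bar of 1 standard error, grouped by role. Filled points have an adjusted p below 0.05, and all 24 of them lie left of 0. The open points reach from -0.18 for CCNB2 to 0.09 for HMMR.

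None of PLK1, AURKA and NEK2, grouped here as mitotic kinases, was called. PLK1 (ENSG00000166851, chromosome 16, 23677656 to 23690366, plus strand), the polo-like kinase needed for spindle formation, had 9623, 10048 and 10849 counts in the controls and 9976, 10066 and 10369 with ZNF706 knocked down. Its CPM was 163 ± 11.6 against 147 ± 4.08 (SD, n = 3) with no overlap, and the log2 fold change of -0.15 (standard error 0.051) had an adjusted p of 0.054 by edgeR, which passed the threshold in 6 of 17 other fits. Without control sample 3, the log2 fold change of PLK1 was -0.097 (adjusted p 0.15 by edgeR). AURKA (ENSG00000087586, chromosome 20, 56369389 to 56392296, minus strand), the kinase of the spindle poles, had 9869, 10373 and 10172 counts with the vector alone and 10488, 9834 and 11322 with the hairpin, and knockdown sample 3 lay inside the control range. Its log2 fold change was -0.093 (adjusted p 0.16 by edgeR), and its processed copy AURKAP1 held 17 to 91 counts in a sample. NEK2, a kinase that parts the centrosomes, was at -0.11 (adjusted p 0.13 by edgeR), or -0.069 without control sample 3 (adjusted p 0.38), and passed in 2 of 17 other fits.

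Of the 4 genes of the chromosomal passenger complex, which corrects faulty attachments at the centromere, 3 fell, and the groups overlapped for none of the 4, beside the shares of 12.4% and 19.7% over all genes tested and 24.3% and 33.8% over the well counted ones. BIRC5 (ENSG00000089685, chromosome 17, 78214186 to 78225636, plus strand), which encodes survivin, had 11969, 13503 and 13481 counts in control cells and 10874, 11113 and 12330 after knockdown. In CPM the highest knockdown sample reached 176 and the lowest control sample 193, and BIRC5 fell by 20.5% with a log2 fold change of -0.33 (SE 0.058, edgeR adjusted p 0.003). AURKB (ENSG00000178999, chromosome 17, 8204733 to 8210600, minus strand), the kinase of the complex, had 5256, 5392 and 5486 counts in the controls and 4972, 5210 and 5390 with ZNF706 knocked down. The raw counts of AURKB overlapped, but scaled to the deeper knockdown libraries they did not, and it measured 86.4 ± 2.60 against 75.2 ± 3.74 CPM (SD, n = 3), with a log2 fold change of -0.20 (SE 0.045, edgeR adjusted p 0.011). CDCA8, borealin, fell by 0.22 on the log2 scale. INCENP, the scaffold of the complex, was not called at -0.12 (adjusted p 0.056 by edgeR).

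In the spindle checkpoint, 2 of 5 members fell. BUB1B (ENSG00000156970, chromosome 15, 40161023 to 40221038, plus strand), the pseudokinase BUBR1 that inhibits the anaphase promoting complex, had 11165, 11121 and 11345 counts with the vector alone and 10205, 9542 and 10228 with the hairpin. Its groups stood well apart, at 180.1 ± 4.94 and 145 ± 2.10 CPM (SD, n = 3), and its log2 fold change was -0.32 (SE 0.035, edgeR adjusted p 0.00031). PAK6, which overlaps BUB1B on the same strand, held only 173, 201 and 200 counts in control cells and 276, 218 and 307 after knockdown, and BUB1B was called lower also when the counts of both were added. MAD2L1, the checkpoint protein that holds CDC20, fell by 0.26 on the log2 scale. The related kinase BUB1 measured 196 ± 4.25 CPM in the controls against 197 ± 4.47 CPM after knockdown (SD, n = 3), with a log2 fold change of 0.0054 (adjusted p 0.94 by edgeR), and its sign turned in 3 of 17 other fits. TTK, the kinase MPS1 at the top of the checkpoint, was at -0.11 and BUB3 at -0.08, and neither was called, although their groups did not overlap.

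The kinetochore and centromere genes held the largest changes and also some of the smallest. CENPE (ENSG00000138778, chromosome 4, 103105349 to 103198445, minus strand), the kinesin that carries chromosomes to the spindle equator, had 5180, 4514 and 4371 counts in control cells and 4003, 3153 and 2887 after knockdown. The knockdown samples were all lower, and the spread was wide in both groups, with control sample 1 and knockdown sample 1 the high ones. CENPE fell by 35.7%, from 75.3 ± 7.27 to 48.5 ± 8.01 CPM (SD, n = 3), a log2 fold change of -0.64 with a standard error of 0.11 and an adjusted p of 0.0025 by edgeR, and per length it was the lowest of the members at 6.54 FPKM in the control group. CENPA (ENSG00000115163, chromosome 2, 26764289 to 26801067, plus strand), the histone H3 variant that marks the centromere, had 2905, 3186 and 3176 counts in the controls and 2615, 2423 and 2621 with ZNF706 knocked down. All knockdown samples were close together below the control samples, with 37.0 ± 0.727 against 49.6 ± 2.44 CPM (SD, n = 3), and CENPA had a log2 fold change of -0.42 (SE 0.05, edgeR adjusted p 0.00043). SLC35F6, which overlaps CENPA on the same strand, had 2708, 2780 and 2634 counts in control cells and 3042, 3081 and 3313 after knockdown, about as many as CENPA itself. Scaled to CPM, SLC35F6 measured 43.8, 43.7 and 42.9 in control cells and 43.4, 45.9 and 47.3 after knockdown, and the groups overlapped. When both were added, the log2 fold change was -0.17, which was still called. SPC25 (ENSG00000152253, chromosome 2, 168834132 to 168913371, minus strand), a subunit of the NDC80 complex that grips the microtubule, had 2089, 2530 and 2439 counts with the vector alone and 2206, 1949 and 2150 with the hairpin. In CPM, control sample 1 lay between its 2 fellow samples and the knockdown group, and the log2 fold change was -0.31 (SE 0.073, edgeR adjusted p 0.013). The call of SPC25 was lost without control sample 2, control sample 3 or knockdown sample 2 (adjusted p up to 0.065 by edgeR). The 3 other subunits of that complex were not called, with log2 fold changes of -0.091 for SPC24, -0.04 for NDC80 and -0.0051 for NUF2. CENPF, a large kinetochore protein, fell by 0.22 on the log2 scale, with 470.5, 401 and 404 CPM in the knockdown samples, and its call was lost in 10 of 17 other fits.

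**Figure D4:**
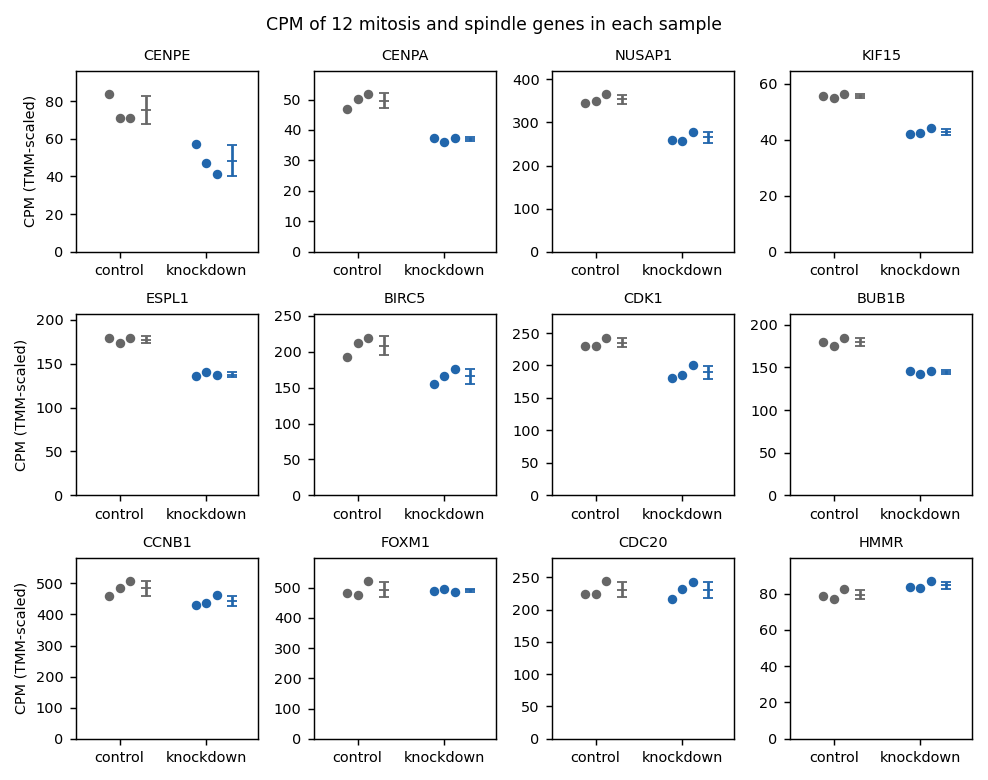
CPM in each sample (points, vertical axes from 0) with the mean and SD of the 3 samples of a group (bars beside them) for 12 mitosis and spindle genes. The first 8 panels, CENPE to BUB1B, show control and knockdown samples that do not overlap. CCNB1, FOXM1 and CDC20 overlap, and in HMMR the 3 knockdown samples lie above the control samples.

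The 8 mitotic kinesins, motors that move along spindle microtubules, divided evenly into 4 that fell and 4 that were not called. KIF15 (ENSG00000163808, chromosome 3, 44761721 to 44853261, plus strand), a motor that helps to hold the spindle poles apart, had 3444, 3499 and 3452 counts in control cells and 2956, 2833 and 3089 after knockdown. The samples of each group were tightly packed, at 55.6 ± 0.596 and 42.8 ± 1.13 CPM (SD, n = 3), and KIF15 fell with a log2 fold change of -0.38 (SE 0.041, edgeR adjusted p 0.00027). KIF11, the motor that first drives the poles apart, was not called (-0.059, adjusted p 0.36 by edgeR). KIF23, a motor of the central spindle, fell by 0.26 on the log2 scale and kept its call in every fit. KIF14, a motor of the midbody, fell by 0.23 and KIF18A, which limits microtubule length, by 0.18, and these calls were lost in 10 and 11 of 17 other fits, with values of -0.14 and -0.079 after removal of the GC trend. KIF20A, which acts in cytokinesis, was at 0.0055, with 341 ± 18.6 CPM in the controls against 343 ± 17.6 CPM after knockdown (SD, n = 3), and its sign turned in 4 of 17 other fits. KIF2C, which takes microtubules apart at the centromere, was at -0.064. KIF4A, a motor on the chromosome arms, had 8668, 9378 and 8924 counts in the controls and 9127, 9112 and 9707 with ZNF706 knocked down and a log2 fold change of -0.10 (adjusted p 0.098 by edgeR), and its copy KIF4B held 46 to 76 counts in a sample.

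Of 6 genes of spindle assembly, NUSAP1, ASPM and TPX2 fell. NUSAP1 (ENSG00000137804, chromosome 15, 41320794 to 41381050, plus strand), which bundles microtubules near the chromosomes, had 21394, 22212 and 22433 counts with the vector alone and 18252, 17210 and 19514 with the hairpin. Each knockdown sample was lower by a wide margin, at 265 ± 11.9 against 354 ± 10.5 CPM (SD, n = 3), and the log2 fold change was -0.41 (SE 0.041, edgeR adjusted p 0.00017). AC087721, a gene on the same strand at this place, had 0, 0 and 0 counts in control cells and 71, 144 and 120 after knockdown, and NUSAP1 together with it gave -0.41. ASPM (ENSG00000066279, chromosome 1, 197084127 to 197146694, minus strand), a protein of the spindle poles, had 18545, 18104 and 18227 counts in control cells and 18887, 14925 and 15242 after knockdown. In raw counts knockdown sample 1 lay above the control samples, and in CPM it was 269, below the lowest control sample at 285, while the other 2 knockdown samples were at 222.5 and 218. The log2 fold change of ASPM was -0.31 (SE 0.071, edgeR adjusted p 0.011), and the call was lost without knockdown sample 2 (adjusted p 0.061 by edgeR). TPX2, which activates AURKA on the spindle, had a level of 147 FPKM in the control group and fell by 0.16 on the log2 scale. Its value was -0.10 under library size alone, and its call was lost without knockdown sample 2 (adjusted p 0.058 by edgeR). PRC1, which crosslinks the central spindle, had 15226, 14404 and 15839 counts in the controls and 15725, 16323 and 15432 with ZNF706 knocked down. It was not called (-0.087, adjusted p 0.3 by edgeR), and passed the threshold in 1 of 17 other fits. DLGAP5, a microtubule-binding protein, was at -0.068. HMMR (ENSG00000072571, chromosome 5, 163460203 to 163491941, plus strand), a spindle protein and hyaluronan receptor, was the member with the highest log2 fold change, 0.087 (SE 0.039, edgeR adjusted p 0.14), and although its CPM was higher in every knockdown sample (84.5 ± 2.01 against 79.5 ± 2.72, SD, n = 3) it did not pass the test. HMMR was called higher under library size scaling, in the FPKM values and after removal of the GC trend.

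Among the 4 genes of anaphase promotion and sister separation, 3 fell. ESPL1 (ENSG00000135476, chromosome 12, 53268299 to 53293638, plus strand), the protease separase that cleaves cohesin, had 11108, 11005 and 11012 counts with the vector alone and 9502, 9447 and 9555 with the hairpin. The groups stood apart in raw counts as well, and ESPL1 fell from 177 ± 3.64 to 138 ± 2.83 CPM (SD, n = 3) with a log2 fold change of -0.37 (SE 0.034, edgeR adjusted p 0.00014). PTTG1, the securin that holds separase inactive, fell by 0.22 and UBE2C, the ubiquitin-conjugating enzyme of the anaphase promoting complex, by 0.25 on the log2 scale. CDC20 (ENSG00000117399, chromosome 1, 43358981 to 43363203, plus strand), the activator of that complex and the target of the checkpoint, had 13904, 14198 and 14966 counts in control cells and 15223, 15531 and 16953 after knockdown. After scaling, the CDC20 groups overlapped (231 ± 11.4 against 230.3 ± 12.7 CPM, SD, n = 3), although knockdown sample 1 lay below every control sample. The log2 fold change of CDC20 was -0.0019 (SE 0.049, edgeR adjusted p 0.99), and its sign turned in 5 of 17 other fits. Its processed copy CDC20P1 held 188 to 285 counts in a sample.

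Both genes of the mitotic chromosome fell. MKI67 (ENSG00000148773, chromosome 10, 128096659 to 128126423, minus strand), which encodes the proliferation marker Ki-67 that coats mitotic chromosomes, had 66266, 63651 and 63791 counts in the controls and 61106, 56639 and 55440 with ZNF706 knocked down, the most of any member. Its groups did not overlap, at 1037 ± 34.7 and 836 ± 40.2 CPM (SD, n = 3), and its log2 fold change was -0.31 (SE 0.04, edgeR adjusted p 0.00067). TOP2A (ENSG00000131747, chromosome 17, 40388525 to 40417896, minus strand), the topoisomerase that untangles sister chromatids, had 52526, 53626 and 53625 counts with the vector alone and 51164, 48022 and 50797 with the hairpin. It measured 855 ± 16.1 against 724 ± 7.07 CPM (SD, n = 3) and had a log2 fold change of -0.24 with the smallest standard error of the members, 0.028 (adjusted p 0.00038 by edgeR). After removal of the GC trend the value was -0.16, which was still called. Y_RNA, a gene inside TOP2A on the same strand, held 10 to 24 counts in a sample. In cytokinesis, 1 of 3 genes fell, which was ECT2, the exchange factor that switches on RhoA at the cleavage furrow, by 0.18 on the log2 scale, a call lost in 9 of 17 other fits, with a value of -0.091 after removal of the GC trend. ANLN, the scaffold of the contractile ring (-0.083), and CEP55, a midbody protein (-0.12, adjusted p 0.051 by edgeR), did not pass, although neither overlapped between the groups.

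The members thus differed in how firmly they were called. Of the 24 that fell, 16 were called lower in each of the 17 other fits, which include 6 that leave out 1 sample each. They were CDK1, CDC25B, AURKB, BIRC5, CDCA8, BUB1B, MAD2L1, CENPA, CENPE, KIF15, KIF23, NUSAP1, UBE2C, ESPL1, TOP2A and MKI67. The calls of CENPF, KIF14, KIF18A, ECT2, PTTG1, SPC25, ASPM and TPX2 were lost in at least 1 fit, and 13 members that were not called passed in at least 1. Leaving out 1 sample moved the log2 fold change by over 1.5 times for 14 members, none of them called, which were CCNB2, CDC25C, FOXM1, PLK1, NEK2, BUB1, NDC80, NUF2, SPC24, KIF11, KIF20A, KIF2C, PRC1 and CDC20. Without knockdown sample 2, the call count fell furthest, with 16 members lower and 0 higher (7.85% and 6.01% of all genes tested), while leaving out knockdown sample 3 gave 25 lower and 0 higher (9.98% and 7.52%). When the counts were scaled by library size alone, the median of all genes moved to 0.06, 20 members were lower and 1 higher (8.25% and 14.9% of all genes tested), and the median member was at -0.10.

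**Figure D5:**
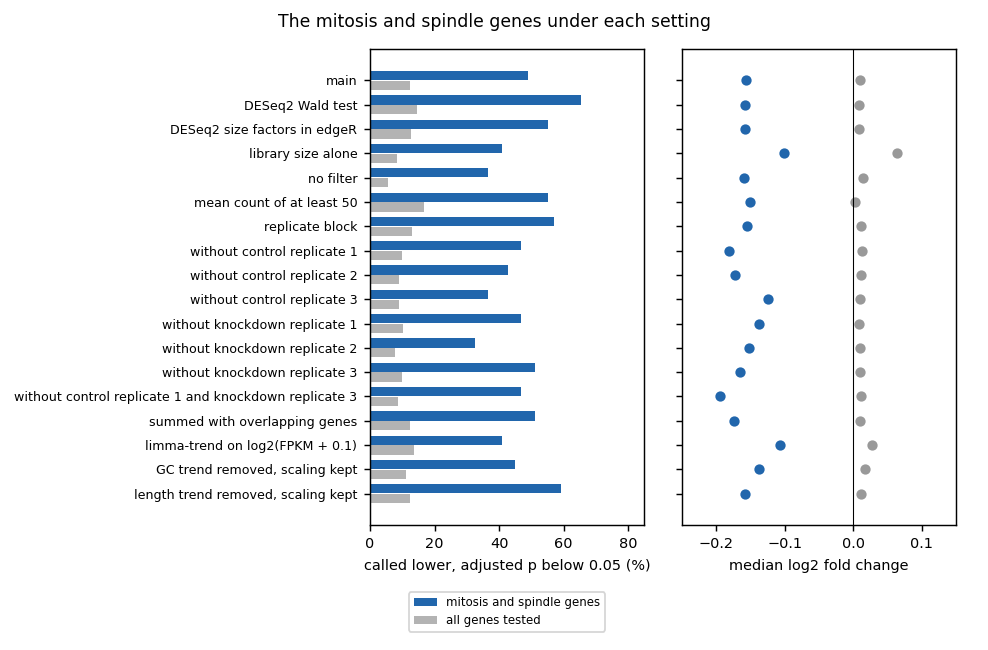
For each way of processing (rows), the left panel gives the percentage of the 49 mitosis and spindle genes and of all genes tested that were called lower at an adjusted p below 0.05, and the right panel the median log2 fold change of both, with the 49 genes in blue and all genes in grey. The share of the 49 genes lies above that of all genes in every row, and their median lies between -0.19 and -0.10.

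Other genes, 123 in 6 lists that hold none of the 49 members and are named here other mitotic genes, were examined in the same fit. Not all of them belong to mitosis alone, such as the kinesins KIF5B, which fell (-0.29, adjusted p 0.00096 by edgeR), and KIF3A, which was not called (0.11, adjusted p 0.55). Of the 123 genes, 49 fell (39.8%, against 12.4% of all genes tested and 24.3% of those averaging 1000 counts or more), 1 rose and 73 were not called. The median log2 fold change of the 123 genes was -0.13. Condensin and cohesin genes, which shape and hold the chromosomes, had the largest share that fell, with 12 of 18 genes. CDCA5, sororin, which locks cohesin on the chromosome, had the smallest adjusted p among them (log2 fold change -0.32, standard error 0.041, adjusted p 0.00071 by edgeR), with 165, 166 and 162 CPM in control cells and 127, 129 and 139.6 CPM after knockdown, which did not overlap. Of 17 regulators of the DREAM, MuvB and E2F group, 8 fell. E2F7, a repressor of the E2F family, measured 73.0, 70.2 and 68.1 CPM in control cells and 48.2, 51.2 and 47.5 CPM after knockdown, again with no overlap, and its log2 fold change was -0.52 (SE 0.045, edgeR adjusted p 9e-05). MYBL2, the partner of MuvB at late cell cycle promoters, fell by 0.27 on the log2 scale, which stands beside the value of -0.0052 for FOXM1. Of 30 other kinetochore and checkpoint genes 6 fell (20.0%), a share below that of the well counted genes. HJURP, the chaperone that places CENPA at the centromere, was 1 of them, at 92.0, 90.4 and 95.2 CPM in control cells and 78.8, 71.5 and 71.5 CPM after knockdown (log2 fold change -0.32, adjusted p 0.0011 by edgeR). Among 27 other kinesins and spindle or centrosome genes, 13 fell, with KIFC1, a motor that clusters spindle poles, at -0.30 (adjusted p 0.00048 by edgeR). Of 14 regulators of mitotic entry and exit 6 fell, which were CDC25A, MASTL, ARPP19, CCNF, CKS2 and CDKN3. ARPP19, an inhibitor of the phosphatase PP2A, was at -0.39 (adjusted p 0.00012 by edgeR). The brakes of mitotic entry in this list, WEE1 (-0.016) and PKMYT1 (0.071), were not called (adjusted p 0.81 and 0.19 by edgeR). The phosphatase genes PPP2R2A, PPP2R5C, CDC14A and CDC14B were not called either. The anaphase promoting complex had the median closest to 0 of the 6 lists, -0.02 over 17 genes, of which 4 fell (23.5%, also no more than among the well counted genes) and 1 rose. UBE2S, which lengthens the ubiquitin chains on its targets, fell (-0.29, adjusted p 0.0033 by edgeR), and ANAPC7, a subunit of the complex, rose (0.12, adjusted p 0.046 by edgeR), from 161, 161 and 159 CPM in the control to 168, 174 and 182 CPM in the knockdown samples, a call that did not hold without control sample 1, 2 or 3 or knockdown sample 2 or 3 (adjusted p 0.11 to 0.13).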

How the data were processed

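LM3 cells were sequenced as RNA in 3 samples with the empty vector and 3 with ZNF706 stably knocked down. Reads were trimmed with cutadapt 1.9 and examined with FastQC, per the submitters' processing notes, and mapped to GRCh38 with HISAT2 by the authors. The authors deposited raw counts per gene, without normalization, and FPKM values per gene, which they had divided by gene length and library size. The counting program, its use of strand and the annotation release are not given in the sources used here. Total counts were 62684076 to 69057423 per sample, and the precision of a value is set by the spread between the 3 samples of a group.

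Genes with low counts were removed by filterByExpr, libraries were scaled by TMM and groups were compared by the quasi-likelihood test of edgeR 4.0.16 in R 4.3.3, with group as the only term and Benjamini-Hochberg adjustment over 18390 genes. Genes were called at an adjusted p below 0.05. A standard error is the size of the log2 fold change over the root of the F statistic. The study names DESeq2, which was used as an alternative (version 1.42.0), as were its size factors, library size alone, other filters, the replicate number as a block, each sample left out and limma-trend (limma 3.58.1) on log2(FPKM + 0.1), limited to genes that average 1 FPKM or more. The members and lists were chosen with earlier results of these data known. Every member is accounted for, and counts in every sample are given for the 10 called members with the largest change, for CCNB1, CDK1, PLK1, AURKA, AURKB, BUB1B, FOXM1, MKI67 and TOP2A, for members with an overlapping gene on the same strand or a processed copy, and values for the gene with the smallest adjusted p of each of the 6 other lists in each direction. Genes named beside these, such as HMMR, CDC25B and MYBL2, were chosen after their values were seen. A result for a gene named under the rule above is not reported here. Gene positions were compared with GENCODE release 29, where all 49 members overlapped their place. Promoter windows came from RefSeq (GRCh38.p14).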

Additional observations from a re-analysis of the deposited data

How the results depend on the processing

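The count of mitosis and spindle genes called lower was 24 and stayed within 1.5 times of that, between 16 and 32, under every alternative fit, while the criteria of the study gave 11, and 16 in place of 49 for the other mitotic genes. The number of members called higher was 0, except for 1 (HMMR) under library size alone, limma-trend on FPKM and removal of the GC trend. For the other mitotic genes, 1 was called higher, and 4 under library size alone, 4 with limma-trend on FPKM, 4 after removal of the GC trend, 2 after removal of the length trend and 0 with no filter, with the study's criteria and without control replicate 1 and knockdown replicate 3 together. Leaving out 1 sample gave 0 to 1 there, 2648 to 3424 calls over all genes in place of 4192 (2648 without knockdown replicate 2), and a median of the members between -0.18 and -0.12 in place of -0.16. That median was -0.10 under library size alone, -0.11 with limma-trend on FPKM and -0.19 without control replicate 1 and knockdown replicate 3. Library size alone moved the share of calls that were higher from 45.5% to 64.4% over all genes, and limma-trend on FPKM to 59.7%. The value of FOXM1 was 0.049 under library size alone, 0.044 with limma-trend on FPKM and -0.050 after removal of the GC trend. With a sample left out it lay between -0.034 and 0.034. The value of CDC20 was 0.052 under library size alone, 0.0029 with a mean count of at least 50 and 0.046 with limma-trend on FPKM. It was -0.060 after removal of the GC trend, -0.045 after removal of the length trend, and between -0.058 and 0.040 with samples left out. The cause of these shifts was not tested. The GC, length and overlap fits and the one without that pair of samples were chosen after seeing the data.

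As deviations from the mean of their group, same-numbered samples had correlations of 0.03, -0.03 and 0.03 over 14125 genes. Values near 0 over all genes cannot show whether the replicate number pairs the samples, since a shared effect may touch only some genes. Over all pairings of a control with a knockdown sample the correlations ran from -0.052 to 0.029. The highest was that of control replicate 3 with knockdown replicate 3, and control replicate 2 also correlated best with knockdown replicate 3 (0.025). With the replicate block, 28 members were lower and 0 higher, the median was -0.16, and 4361 genes were called in place of 4192.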
